A study of Homo sapiens with 15 samples.

Results

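Cells recognise viral or misplaced nucleic acid with a small set of sensor proteins, and the genes for 10 cytosolic RNA and DNA sensors and their adaptors were examined here in 12Z cells. They are RIGI, IFIH1 and DHX58 (the RIG-I-like receptors), the helicases DDX60 and DDX60L, the adaptor MAVS, the kinase gene EIF2AK2, TLR3, CGAS and STING1. The genes were listed by name and function, with earlier results of these data known, and all 10 were among the 23184 genes that passed a filter on low counts, of 60617 gene identifiers in the count tables. Each had between 165 and 14524 counts in every library.

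The 12Z cell line derives from human endometriosis and is described as epithelial. RNA sequencing covered 15 libraries in 5 groups of 3, and the methods of the study describe the 3 libraries of a condition as independent experiments. Whether different conditions shared an experiment is not stated. The study asked how viperin, the interferon-induced antiviral enzyme encoded by RSAD2, bears on the transcriptional response to insulin in cells with mutant PIK3CA. All cells were transfected with an siRNA pool and, 24 hours later, with a pBabe plasmid, then kept without serum for 4 hours and treated for 24 hours, with collection 72 hours after transfection.

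The non-targeting group had non-targeting siRNA, empty pBabe vector and vehicle. The other 4 groups all carried the RSAD2 knockdown (siRSAD2) and had empty vector with vehicle, empty vector with 100 nM insulin, PIK3CA H1047R plasmid with vehicle, or PIK3CA H1047R plasmid with 100 nM insulin. H1047R is an activating substitution in the catalytic subunit of phosphatidylinositol 3-kinase, here delivered by transient transfection on top of the cells' own PIK3CA. Insulin and H1047R were thus compared only in cells depleted of RSAD2 mRNA. Levels are given as CPM, the usual unit for counts scaled to library size, here with TMM factors. RSAD2 was at 3.003 to 3.69 CPM in the non-targeting libraries and at 0.0769 to 1.41 CPM in the siRSAD2 libraries. Its mean was 0.33 CPM in both empty-vector siRSAD2 groups, and 0.90 and 0.84 CPM with H1047R and vehicle or insulin. The H1047R comparisons were thus not made at equal mean RSAD2 levels, and the part of this in them was not tested. PIK3CA was at 160 to 223 CPM in the H1047R libraries and at 76.5 to 109 CPM in the others, so both labels held in every library. With H1047R it was at 199 to 223 CPM with vehicle and at 160 to 164 CPM with insulin. The empty-vector siRSAD2 means were 89.0 and 79.2 CPM. Insulin and vehicle were thus compared in H1047R cells at unequal PIK3CA levels. The part of this in the H1047R and insulin comparisons, and in the contrast between them, was not tested.

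RIG-I, MDA5 (the product of IFIH1) and LGP2 (the product of DHX58) bind double-stranded RNA in the cytosol, and RIG-I and MDA5 then signal through MAVS on mitochondria to switch on interferon genes. Protein kinase R, encoded by EIF2AK2, answers double-stranded RNA by phosphorylating the translation factor eIF2 alpha, and TLR3 detects double-stranded RNA in endosomes. For DNA, cGAS makes a cyclic dinucleotide that activates STING at the endoplasmic reticulum. Many of these genes are themselves raised by interferon, through transcription factors that bind interferon-stimulated response elements (ISRE) and gamma-activated sites (GAS).

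Promoter sequences show how these genes differ before any measurement. RefSeq (GRCh38.p14) promoter windows, from 250 bases before to 50 bases after the annotated start, were matched for 7 of the 10 genes; DHX58, CGAS and STING1 had no entry. The ISRE core, searched as GAAANNGAAA or TTTCNNTTTC on either strand, was present in 5 of the 7 windows against 3.574% of 35116 RefSeq promoters. IFIH1 had 3 cores, 2 of them overlapping, DDX60 and DDX60L had 2 each, and EIF2AK2 and TLR3 had 1 each at the start site. The windows of RIGI and MAVS had no match. The RIGI window does hold GAAACGAAA, with 1 base between 2 copies of GAAA, which the search with 2 free bases does not count. The GAS core, TTCNNNGAA, which reads the same on both strands, was found in DDX60 and TLR3 and in 7.657% of all promoters. The cores nearest the start were the same 10 bases, GAAACCGAAA, in DDX60 and DDX60L, which are neighbours on chromosome 4. The RefSeq start of DDX60L lies inside the gene whose counts were tested, which extends upstream to 168537786 in GENCODE. Its window is therefore not at the upstream end of that gene. Matches describe letters in these windows and are not evidence of binding.

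The windows of 5 genes are printed 5′ to 3′ along the gene with ISRE cores in capitals, because these genes carry most of the differences described below. They lie on GRCh38.p14 at chr4:168318703-168319002 (DDX60, minus strand), chr4:168480443-168480742 (DDX60L, minus strand), chr2:162318635-162318934 (IFIH1, minus strand), chr4:186068906-186069205 (TLR3, plus strand) and chr9:32526147-32526446 (RIGI, minus strand, without a core of the form searched).
DDX60: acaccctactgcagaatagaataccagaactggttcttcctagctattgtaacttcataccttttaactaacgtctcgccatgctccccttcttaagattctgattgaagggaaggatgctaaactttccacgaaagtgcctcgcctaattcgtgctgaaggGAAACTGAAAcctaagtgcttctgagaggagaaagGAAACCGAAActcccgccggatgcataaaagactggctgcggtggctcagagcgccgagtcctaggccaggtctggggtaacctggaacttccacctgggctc
DDX60L: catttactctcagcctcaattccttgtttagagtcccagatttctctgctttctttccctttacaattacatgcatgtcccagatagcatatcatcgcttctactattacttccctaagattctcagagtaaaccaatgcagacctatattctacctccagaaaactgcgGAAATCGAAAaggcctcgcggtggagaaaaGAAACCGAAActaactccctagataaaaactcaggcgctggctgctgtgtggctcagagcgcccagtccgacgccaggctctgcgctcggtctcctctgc
IFIH1: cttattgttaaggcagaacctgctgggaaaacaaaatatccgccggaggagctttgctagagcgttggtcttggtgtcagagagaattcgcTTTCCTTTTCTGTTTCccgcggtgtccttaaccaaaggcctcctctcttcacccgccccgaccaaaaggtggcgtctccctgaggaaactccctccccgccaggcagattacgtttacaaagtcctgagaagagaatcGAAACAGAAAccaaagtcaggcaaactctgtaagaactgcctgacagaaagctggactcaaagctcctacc
TLR3: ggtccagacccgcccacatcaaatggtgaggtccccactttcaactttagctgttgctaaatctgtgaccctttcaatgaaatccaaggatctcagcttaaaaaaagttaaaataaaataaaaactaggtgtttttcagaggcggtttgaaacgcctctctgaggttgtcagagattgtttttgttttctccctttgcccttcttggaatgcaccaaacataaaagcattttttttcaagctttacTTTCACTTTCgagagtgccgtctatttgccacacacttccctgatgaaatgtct
RIGI: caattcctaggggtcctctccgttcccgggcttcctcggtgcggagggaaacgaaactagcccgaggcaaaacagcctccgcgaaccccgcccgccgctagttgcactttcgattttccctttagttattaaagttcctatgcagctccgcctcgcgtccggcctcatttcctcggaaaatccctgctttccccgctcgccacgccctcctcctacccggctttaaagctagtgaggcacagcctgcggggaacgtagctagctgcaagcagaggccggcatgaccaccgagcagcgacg

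**Figure D1:**
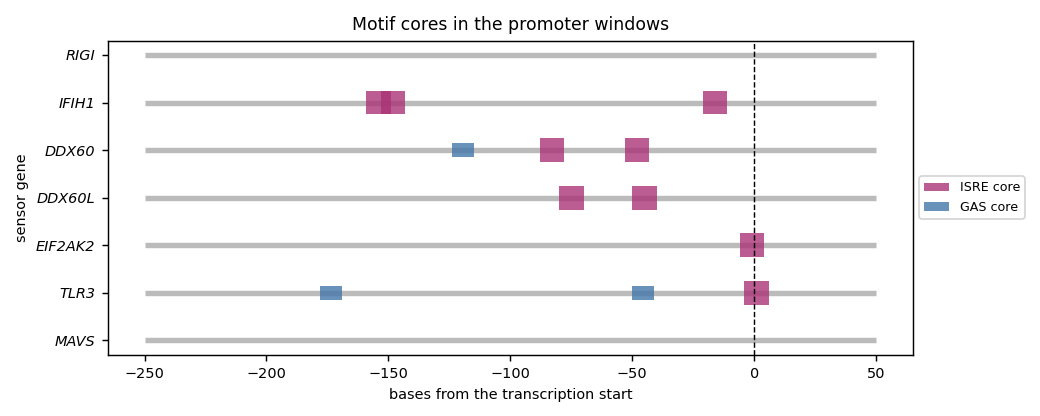
Positions of ISRE and GAS cores (coloured blocks) in the promoter windows of the 7 sensor genes with a RefSeq entry (rows), in bases from the transcription start (horizontal axis, dashed line at 0). DDX60 and DDX60L each have 2 ISRE cores upstream of the start, IFIH1 has 3, and the rows of RIGI and MAVS are empty.

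The libraries held 16.1 to 39.7 M gene counts (median 24.3 M). The keratin genes KRT8, KRT18 and KRT19 were high, with 14736 to 35521 counts of KRT8. KRT7, MUC1 and PAX8 had 394 to 973, 100 to 310 and 103 to 279 counts. EPCAM (0 to 15 counts), CDH1 (7 to 32), CLDN3 (6 to 31) and CLDN4 (20 to 58) were near 0. The stromal genes COL1A1 and VIM had 42233 to 98511 and 27166 to 82843 counts. The epithelial label thus held for KRT8, KRT18 and KRT19 and not for EPCAM, CDH1, CLDN3 and CLDN4. A set of 12 immune markers summed to 4.82 to 13.9 CPM. NKG7 had 0 counts in every library, whereas CD14 had 66 to 169 and ITGAX 12 to 49. In siRSAD2 empty-vector vehicle library 3, PTPRC had 260 counts against 8 to 39 in the other 14, and this library also had the highest unmapped share (8.31% of read pairs). Insulin empty-vector library 2 differed most from the others of its group, with chi-square values per degree of freedom of 12.5 and 13.6 against 3.24 to 6.52 for all other replicate pairs. A set of 7 libraries, all 6 with H1047R and insulin empty-vector library 3, had 6.11 to 6.50% of strand-assigned gene counts on the forward strand and 4.34 to 5.19% of read pairs outside genes. The other 8 had 5.77 to 5.89% and 3.35 to 4.11%. The labels name no batch. Results of the sensor genes that turn on these libraries are given with and without them, and those of other genes were not refitted.

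The 10 genes spanned more than an order of magnitude in RPKM, which is CPM divided by the exon length in kilobases and was used to compare genes. MAVS had a median of 28.8 RPKM over the 15 libraries and EIF2AK2 24.2 RPKM, at the 90.5th and 88.3rd percentile of 14860 protein-coding genes tested. The other 8 lay in the middle of the distribution, from IFIH1 with 5.46 RPKM (56.4th percentile) through DDX60L with 4.51, DHX58 with 4.00, RIGI with 3.52, DDX60 with 3.09, STING1 with 2.89 and TLR3 with 2.32 to CGAS with 2.14 RPKM (38.7th percentile). The adaptor and the kinase thus exceeded every receptor. The order of the other 8 rests in part on the annotated exon lengths, such as 17337 bases for DDX60 and 5225 for IFIH1. In CPM, DDX60 had group means of 41.5 to 83.8 and IFIH1 of 24.8 to 35.7. The ratio of the highest to the lowest library was greatest for DDX60 (2.25) and RIGI (2.12) and smallest for MAVS (1.15).

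**Figure D2:**
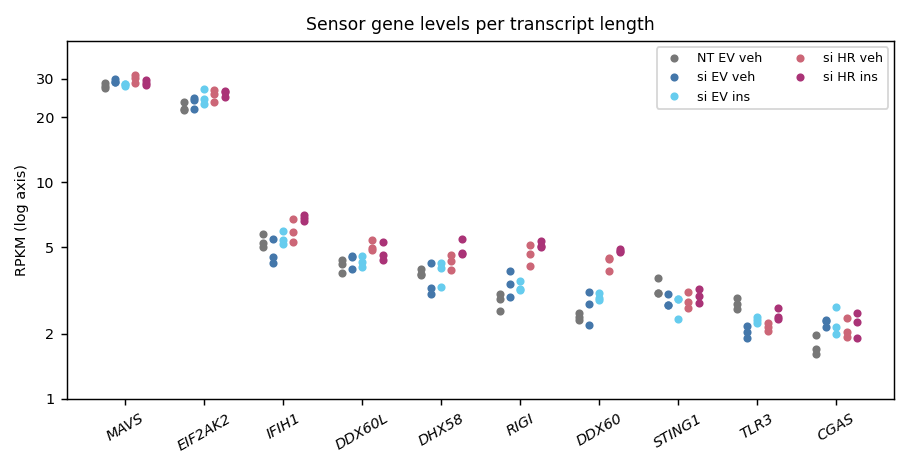
RPKM (vertical axis, log scale) of each sensor gene (horizontal axis) in each of the 15 libraries, coloured by group (NT, non-targeting; si, siRSAD2; EV, empty vector; HR, H1047R; veh, vehicle; ins, insulin). MAVS and EIF2AK2 stand above 20 RPKM in every library, whereas the other genes lie below 10 RPKM.

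H1047R was compared with empty vector in siRSAD2 cells to ask what the mutant kinase changed. With vehicle, RIGI, IFIH1 and DDX60 rose and no sensor gene fell, so 3 of 10 passed the test (edgeR adjusted p below 0.05). Of all genes tested, 1.36% passed in either direction and 0.621% rose. With insulin, RIGI and DDX60 rose, 2 of 10 beside 0.285% of all genes in either direction and 0.22% rising. The median log2 change of the 10 genes was 0.17 with vehicle and 0.14 with insulin, against 0.00 over all genes in both. Bulk RNA cannot tell a change in the number of expressing cells from a change of RNA per cell, here and in every comparison below.

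RIGI, which encodes RIG-I, a sensor of short RNA with a triphosphate end (ENSG00000107201.10, hg38 chromosome 9, 32455302 to 32526208, minus strand), had 26.2, 29.7 and 31.6 CPM in the non-targeting libraries. It had 35.1, 40.04 and 30.4 CPM in siRSAD2 empty-vector vehicle cells and 32.9, 36.4 and 33.4 CPM with insulin. With H1047R it had 42.3, 53.3 and 48.3 CPM with vehicle and 52.6, 51.7 and 55.4 CPM with insulin. Every H1047R library lay above every library without it. The log2 rise was 0.46 ± 0.08 with vehicle (SE, edgeR adjusted p = 0.00455) and 0.64 ± 0.09 with insulin (edgeR adjusted p = 0.000148), or 1.37-fold and 1.56-fold. In the order of group means, the empty-vector vehicle and insulin groups overlapped, as did both H1047R groups. Without H1047R vehicle library 2 the rise with vehicle was 0.35 and did not pass (edgeR adjusted p = 0.0786).

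IFIH1, which encodes MDA5, a sensor of long double-stranded RNA (ENSG00000115267.8, chromosome 2, 162267074 to 162318684, minus strand), had 27.4, 26.1 and 29.99 CPM in the non-targeting libraries. It had 22.2, 28.5 and 23.6 CPM in siRSAD2 empty-vector vehicle cells and 27.2, 31.0 and 28.2 CPM with insulin. With H1047R it had 27.6, 35.5 and 30.7 CPM with vehicle and 36.8, 35.9 and 34.5 CPM with insulin. The vehicle groups overlapped, whereas the insulin groups did not. The log2 rise with vehicle was 0.35 ± 0.09 (edgeR adjusted p = 0.0428), and it passed in 2 of the 6 fits that left out 1 library (0.22 to 0.45), not without empty-vector library 1 or 3 or H1047R library 2 or 3. With insulin the difference was 0.31 ± 0.09 (edgeR adjusted p = 0.154). Each group of IFIH1 overlapped the next in the order of means.

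DHX58, whose product LGP2 lacks the signalling domains of RIG-I and MDA5 and tunes their activity (ENSG00000108771.13, chromosome 17, 42101404 to 42112714, minus strand), had 15.3, 14.3 and 14.5 CPM in the non-targeting libraries. It had 11.6, 16.1 and 12.4 CPM in siRSAD2 empty-vector vehicle cells and 16.2, 12.5 and 15.3 CPM with insulin. With H1047R it had 17.7, 16.6 and 15.01 CPM with vehicle and 17.8, 20.9 and 18.1 CPM with insulin. Both H1047R differences, 0.31 ± 0.11 and 0.36 ± 0.11, missed the threshold (edgeR adjusted p = 0.184 and 0.180).

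DDX60, an interferon-induced helicase reported to aid RIG-I-like receptors (ENSG00000137628.17, chromosome 4, 168216291 to 168318883, minus strand), had 40.1, 43.3 and 41.2 CPM in the non-targeting libraries. It had 47.4, 54.1 and 38.0 CPM in siRSAD2 empty-vector vehicle cells and 53.6, 49.3 and 50.5 CPM with insulin. With H1047R it had 67.1, 77.6 and 76.6 CPM with vehicle and 85.2, 83.8 and 82.4 CPM with insulin. The 3 groups without H1047R overlapped one another in order, and both H1047R groups stood apart from them and from each other. The log2 rise was 0.67 ± 0.08 with vehicle (1.59-fold, edgeR adjusted p = 2.01e-05) and 0.71 ± 0.08 with insulin (1.64-fold, edgeR adjusted p = 5.22e-06). By p value DDX60 ranked 3rd of all genes with vehicle and 4th with insulin, and by size it ranked 55th of 144 and 20th of 51 genes that rose.

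DDX60L, the close relative of DDX60 that lies 37851 bases from it on the same strand (ENSG00000181381.13, chromosome 4, 168356735 to 168537786), had 53.3, 50.9 and 46.1 CPM in the non-targeting libraries. It had 54.8, 55.2 and 48.5 CPM in siRSAD2 empty-vector vehicle cells and 49.4, 55.5 and 51.9 CPM with insulin. With H1047R it had 60.6, 66.01 and 59.2 CPM with vehicle and 53.1, 56.3 and 64.1 CPM with insulin. The vehicle groups did not overlap and the insulin groups did. The log2 differences were 0.23 ± 0.07 and 0.15 ± 0.07 (edgeR adjusted p = 0.105 and 0.459), below the 0.67 and 0.71 of DDX60. Reads that match both relatives equally would not be assigned to either, and PALLD overlaps DDX60L on the other strand.

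**Figure D3:**
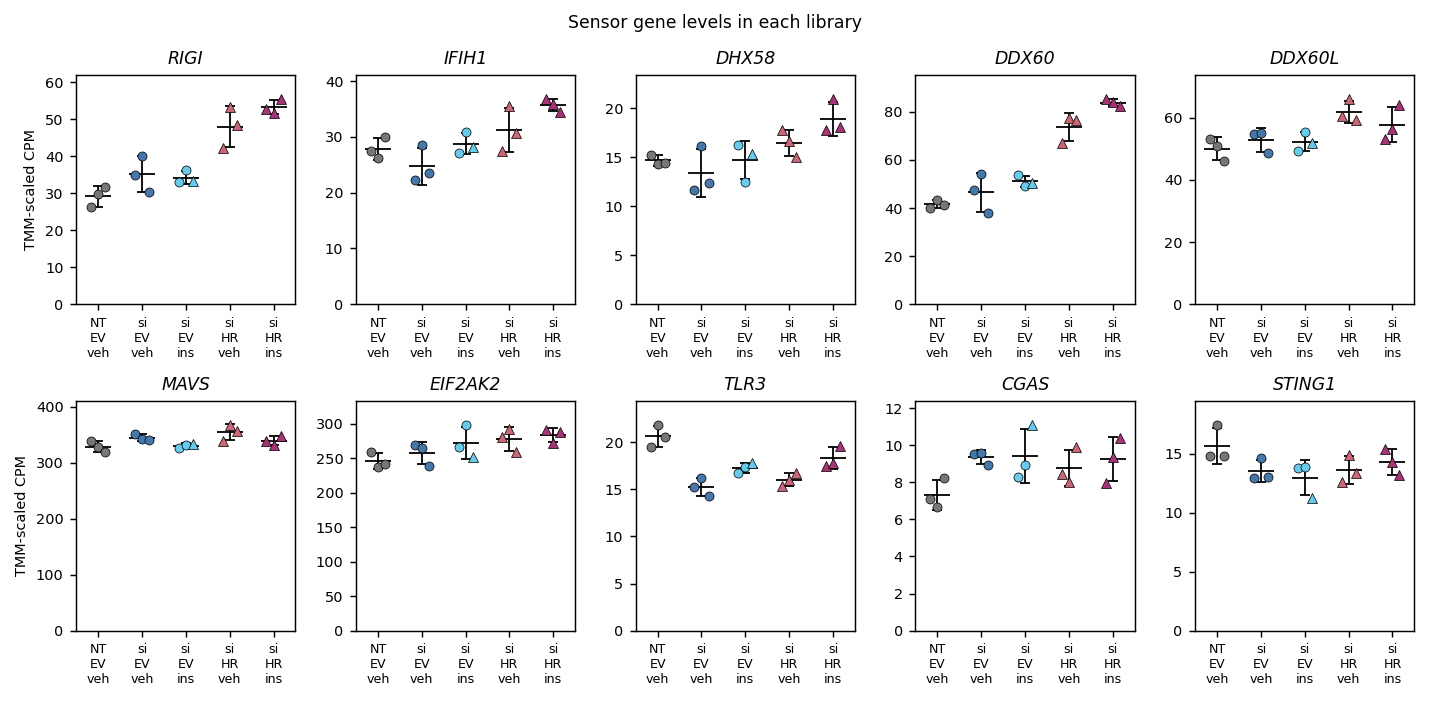
TMM-scaled CPM (vertical axes, from 0) of each sensor gene in the 15 libraries by group (horizontal axes, NT, non-targeting; si, siRSAD2; EV, empty vector; HR, H1047R; veh, vehicle; ins, insulin), with the mean and SD of 3 libraries as bars. Triangles mark the 7 libraries with over 6% of counts on the forward strand. RIGI and DDX60 are higher in every H1047R library than in every other, and TLR3 is lower in every siRSAD2 empty-vector vehicle library than in every non-targeting one.

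Averaged over vehicle and insulin, the H1047R effect passed for 5 of the 10 genes, all upward, beside 2.72% of all genes in either direction and 1.47% rising. RIGI rose by 0.55 ± 0.06 (edgeR adjusted p = 1.58e-06), DDX60 by 0.69 ± 0.06 (6.24e-09), IFIH1 by 0.33 ± 0.06 (0.00293), DHX58 by 0.33 ± 0.08 (0.0139) and DDX60L by 0.19 ± 0.05 (0.0332). These are the RIG-I-like receptors and the helicase pair. EIF2AK2, TLR3, MAVS, CGAS and STING1 had average differences of 0.08, 0.08, 0.04, -0.05 and 0.07, with edgeR adjusted p from 0.318 to 0.850. With a term for the high forward-strand set, described below, the values for EIF2AK2, CGAS and STING1 moved to 0.22 ± 0.08, -0.36 ± 0.17 and 0.33 ± 0.15 and did not pass (edgeR adjusted p = 1.00 for each). Leaving out 1 library at a time, RIGI, DDX60 and IFIH1 passed in 12 of 12 fits. DHX58 passed in 10 (0.28 to 0.41), not without empty-vector vehicle library 1 or H1047R vehicle library 1. DDX60L passed in 7 (0.15 to 0.22), and it missed the threshold without H1047R vehicle library 1 or 2, H1047R insulin library 3, the third empty-vector vehicle library or the first empty-vector insulin library.

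All 6 H1047R libraries belong to the set with more forward-strand counts, so with vehicle H1047R cannot be compared within that set. The only empty-vector library of the set, insulin library 3, had 33.4 CPM of RIGI and 50.5 CPM of DDX60, inside the range of the other insulin empty-vector libraries and below every H1047R library. With only the 7 libraries of the set, the rise with insulin was 0.67 ± 0.09 for RIGI and 0.73 ± 0.08 for DDX60. These rest on 1 empty-vector library, which is assumed to vary like the others, and are given as values with no test. A term for the set in the fit of all libraries is estimated only from that library against the other insulin empty-vector libraries, so every H1047R value with the term rests on it. With the term, DDX60 had 0.73 ± 0.12 (edgeR adjusted p = 0.00481) and RIGI 0.68 ± 0.13 (0.0263) with insulin. With vehicle that term gave 0.70 ± 0.15 for DDX60, 0.51 ± 0.16 for RIGI and 0.39 ± 0.17 for IFIH1, none of which passed (edgeR adjusted p = 0.140, 0.859 and 0.940), and 3 genes passed in all. On average over both treatments only DDX60 passed with the term, at 0.71 ± 0.12 (edgeR adjusted p = 0.00962), and RIGI, IFIH1, DHX58 and DDX60L had 0.59 ± 0.13, 0.36 ± 0.14, 0.26 ± 0.17 and 0.20 ± 0.11. Without the pair of libraries that stand apart, empty-vector vehicle library 3 and insulin library 2, the vehicle rise was 0.54 ± 0.06 for DDX60, 0.36 ± 0.08 for RIGI and 0.31 ± 0.09 for IFIH1, and all passed (edgeR adjusted p = 2.13e-07, 0.00331 and 0.0432). Without them the average rise of DHX58 was 0.25 ± 0.08 and did not pass (edgeR adjusted p = 0.0660).

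**Figure D4:**
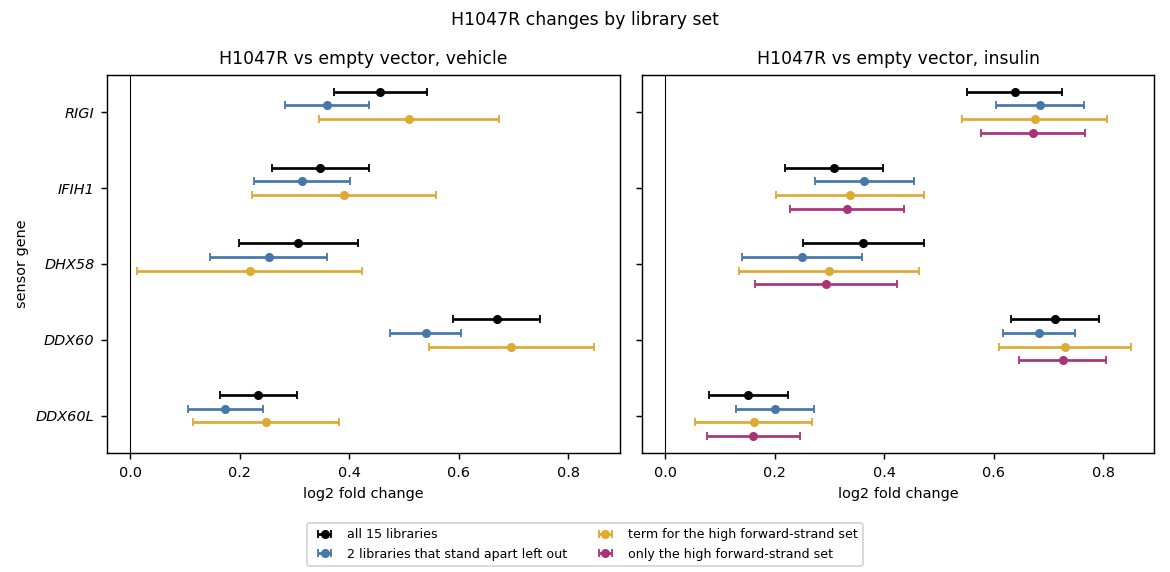
Log2 fold change with SE (horizontal axis) for H1047R against empty vector with vehicle (left) and insulin (right), for 5 sensor genes and 4 ways of using the libraries. The values for RIGI and DDX60 stay between 0.36 and 0.73, whereas the error bars widen with a term for the high forward-strand set; a fit within that set exists only for insulin.

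Knockdown of RSAD2 was compared with non-targeting siRNA in vehicle-treated empty-vector cells. TLR3 fell, RIGI and CGAS rose, and 7 sensor genes did not pass. That is 3 of 10 beside 19.5% of all genes tested, with 2 rises beside 9.82% and 1 fall beside 9.72%, so the number called did not set the sensors apart from other genes in this comparison. The 4 epithelial markers that passed, among them KRT8 at -0.34 ± 0.05, all fell too, and summed epithelial markers were 2370 to 2406 CPM in the non-targeting libraries and 1918 to 2056 CPM after the knockdown. All 10 stromal markers passed, 4 upward and 6 downward, with sums of 6123 to 6439 CPM before and 6005 to 6114 CPM after. Their part in the changes of the sensor genes was not tested.

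TLR3, the endosomal receptor for double-stranded RNA (ENSG00000164342.12, chromosome 4, 186068911 to 186088073, plus strand), had 19.5, 21.8 and 20.6 CPM in the non-targeting libraries and 15.3, 16.2 and 14.3 CPM in siRSAD2 empty-vector vehicle cells. The groups did not overlap. The log2 change was -0.44 ± 0.08 (edgeR adjusted p = 0.000132), a 1.36-fold fall, and it passed in 17 of 17 alternatives, with changes from -0.48 to -0.39. In the other siRSAD2 groups it had 16.7, 17.4 and 17.8 CPM with insulin, 15.4, 16.04 and 16.7 CPM with H1047R, and 17.5, 17.8 and 19.6 CPM with both. Only the last of these overlapped the non-targeting libraries, by 1 library at 19.6 CPM.

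CGAS, the DNA sensor (ENSG00000164430.16, chromosome 6, 73413515 to 73452297, minus strand), had 7.08, 6.69 and 8.24 CPM in the non-targeting libraries and 9.54, 9.61 and 8.96 CPM after the knockdown. The log2 rise was 0.36 ± 0.12 (edgeR adjusted p = 0.0388), but of the 6 fits that left out a library (0.29 to 0.46) it passed only without non-targeting library 6, and it did not pass with DESeq2 (adjusted p = 0.0576). With H1047R or insulin, CGAS ranged from 7.99 to 11.1 CPM. RIGI rose by 0.27 ± 0.09 with the knockdown (edgeR adjusted p = 0.0280), and did not pass without non-targeting library 4, non-targeting library 5 or empty-vector vehicle library 2 (0.20, 0.29 and 0.19, edgeR adjusted p = 0.178, 0.0606 and 0.173). Without empty-vector vehicle library 3, the lowest of its group for RIGI and DDX60, DDX60 had a rise of 0.29 that passed (edgeR adjusted p = 0.00382), against 0.16 ± 0.08 with all libraries (0.180). STING1 had a difference of -0.21 ± 0.10 (edgeR adjusted p = 0.137) and IFIH1 of -0.17 ± 0.09 (0.200). IFIH1 ranged from -0.26 to -0.09 when 1 library was left out, and passed as a fall only without empty-vector vehicle library 2 (-0.26, edgeR adjusted p = 0.0466).

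**Figure D5:**
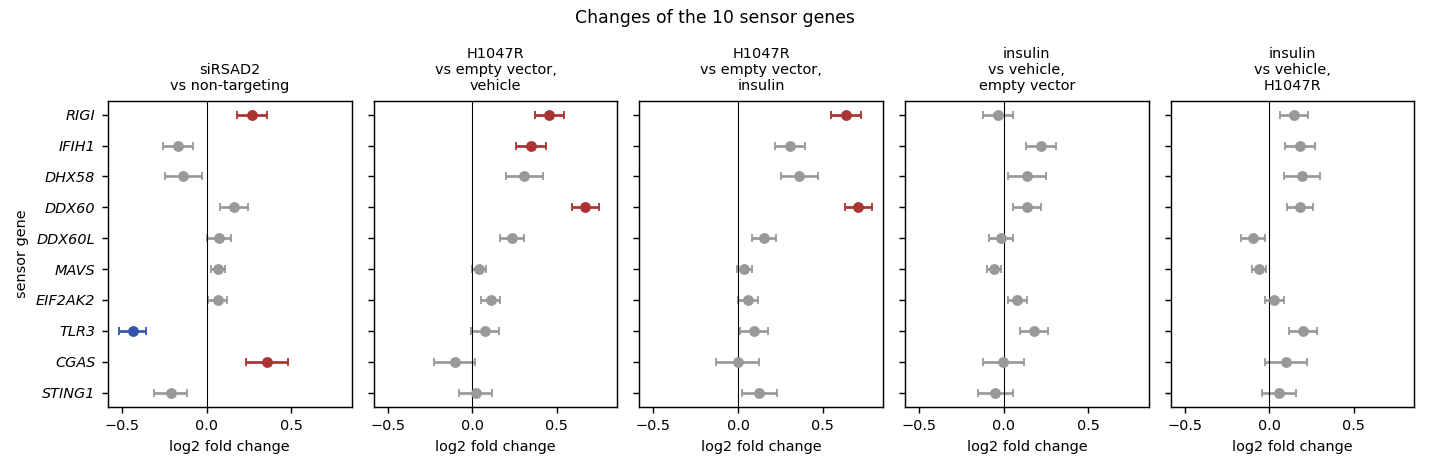
Log2 fold change with SE (horizontal axes) of the 10 sensor genes (rows) in the 5 comparisons of 2 groups that differ in 1 factor; coloured points passed the edgeR test and grey points did not. DDX60 has the largest rise with H1047R, 0.67 with vehicle and 0.71 with insulin, TLR3 falls by 0.44 with siRSAD2, and no point passes for insulin.

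Insulin was compared with vehicle in siRSAD2 cells with each vector. None of the 10 genes passed with empty vector (2 at an unadjusted p below 0.05, none with DESeq2), beside 6.28% of all genes. None passed with H1047R (3 at an unadjusted p below 0.05, none with DESeq2), beside 2.47%. The largest differences with empty vector were 0.22 ± 0.09 for IFIH1 and 0.18 ± 0.08 for TLR3 (edgeR adjusted p = 0.160 and 0.216). With H1047R they were 0.20 ± 0.08 for TLR3, 0.19 ± 0.11 for DHX58 and 0.18 ± 0.08 for DDX60 (edgeR adjusted p = 0.293, 0.562 and 0.327). IFIH1 passed with empty vector when vehicle library 2 was left out (0.32, edgeR adjusted p = 0.0386).

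Averaged over both vectors, insulin raised IFIH1 by 0.20 ± 0.06 and TLR3 by 0.19 ± 0.06 (edgeR adjusted p = 0.0427 and 0.0362), which is 2 of 10 beside 8.37% of all genes in either direction and 3.15% rising. IFIH1 passed in 3 and TLR3 in 5 of the 12 fits that left out a library, with values from 0.15 to 0.26 and 0.16 to 0.21. IFIH1 passed only without vehicle empty-vector library 2, insulin empty-vector library 1 or vehicle H1047R library 2, and TLR3 only without vehicle empty-vector library 2, insulin empty-vector library 1 or 2, vehicle H1047R library 3 or insulin H1047R library 1. With the term for the high forward-strand set, IFIH1 had 0.21 ± 0.07 and TLR3 0.18 ± 0.06, and neither passed (edgeR adjusted p = 0.0525 and 0.0684). Without both libraries that stand apart they had 0.15 ± 0.06 and 0.16 ± 0.07 and did not pass (edgeR adjusted p = 0.139 and 0.126). DDX60 had 0.16 ± 0.06 on average and missed the threshold (edgeR adjusted p = 0.0774). Of 10 stromal markers, 5 fell with insulin on average, among them MME at -0.44 ± 0.03 and VIM at -0.28 ± 0.03, and 3 fell with each vector. Their summed level was 6005 to 6114 CPM with vehicle and 5114 to 5765 CPM with insulin in empty-vector cells, and 5773 to 5935 and 5445 to 5965 CPM in H1047R cells. Their part in the changes of IFIH1 and TLR3 was not tested.

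Whether insulin acted differently with H1047R was tested as an interaction. With all 15 libraries, none of the 10 genes passed, none had an unadjusted p below 0.05 and none passed with DESeq2, and 0% of all genes tested passed (1611 at an unadjusted p below 0.05, none with DESeq2). RIGI had the largest difference between the insulin effects, 0.18 ± 0.12 with a 95% interval of -0.09 to 0.45 on the 10 residual degrees of freedom. Without both libraries that stand apart, the difference for RIGI was 0.33 ± 0.11, with an unadjusted p of 0.00515 and an edgeR adjusted p of 0.642. DDX60 had 0.04 ± 0.11 with an interval of -0.21 to 0.29. Differences inside these intervals could not be resolved with 3 libraries per group. The H1047R comparisons with vehicle and with insulin use different libraries, while each vehicle and insulin comparison shares libraries with the H1047R comparison beside it.

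MAVS, the mitochondrial adaptor (ENSG00000088888.18, chromosome 20, 3846799 to 3876123, plus strand), ranged from 319 to 367 CPM and passed in none of the 9 comparisons in the fit of all libraries. Its difference between H1047R vehicle and non-targeting cells, 0.11 ± 0.04 (edgeR adjusted p = 0.0649), passed in 6 of 16 alternatives, with adjusted p from 0.0170 to 0.629. Its average H1047R difference had a 95% interval of -0.03 to 0.11 and its difference with the knockdown one of -0.02 to 0.16. EIF2AK2 (ENSG00000055332.18, chromosome 2, 37099210 to 37157522, minus strand) ranged from 237.5 to 297.3 CPM, with an average H1047R interval of -0.01 to 0.17. STING1 (ENSG00000184584.13, chromosome 5, 139475533 to 139482935, minus strand) ranged from 11.3 to 17.4 CPM, with an average H1047R interval of -0.09 to 0.23. With the set term the average values of EIF2AK2 and STING1, 0.22 and 0.33, lay above these intervals. For all 3 of these genes, each group overlapped the next in the order of means. Opposite-strand genes overlap EIF2AK2 (GPATCH11) and CGAS (DDX43), and forward-strand counts were 0.134 to 1.14% of the total at the 10 genes.

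Between the non-targeting group and siRSAD2 H1047R vehicle cells, which differ in siRNA and vector together, 5 of the 10 genes passed beside 20.6% of all genes, with 4 rises beside 10.2% and 1 fall beside 10.4%. RIGI rose by 0.73 ± 0.09 (edgeR adjusted p = 1.82e-07), DDX60 by 0.83 ± 0.08 (3.37e-09), DDX60L by 0.31 ± 0.07 (0.00175) and EIF2AK2 by 0.18 ± 0.06 (0.0252), and TLR3 fell by 0.36 (SE 0.08, 0.00106). EIF2AK2 passed in 2 of the 6 fits that left out a library (0.14 to 0.23), those without non-targeting library 4 or H1047R library 3. RIGI and DDX60 passed in 16 of 16 alternatives, with values from 0.64 to 0.81 and 0.79 to 0.89. With the term for the high forward-strand set, TLR3 had -0.43 ± 0.15 and DDX60L 0.32 ± 0.13. Neither passed with that term (edgeR adjusted p = 0.116 and 0.210), and EIF2AK2 had 0.34 ± 0.10 and passed (0.0354).

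The other genes of the sensing pathways were read from lists chosen for function. Among 18 genes of double-stranded RNA handling, 3 rose and none fell with H1047R and vehicle, and 4 rose and none fell with insulin, where 0.621% and 0.22% of all genes rose. All were OAS genes, which encode synthetases, or a relative of them, that are induced by interferon and respond to double-stranded RNA. OAS2 rose by 1.05 ± 0.19 and 1.15 ± 0.19, OASL by 0.83 ± 0.13 and 1.27 ± 0.13, and OAS1 by 0.83 ± 0.17 and 0.84 ± 0.17 with vehicle and insulin, and OAS3 by 0.53 ± 0.10 with insulin (edgeR adjusted p from 2e-06 to 0.0173). The median log2 change of the list was 0.04 with vehicle and 0.02 with insulin, and the remaining members did not pass. DESeq2 called fewer of the list, 1 with vehicle and 2 with insulin. The genes of these lists were not refitted within the library set.

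Of 20 cofactors and regulators of the RIG-I-like receptors, MARCHF5, a mitochondrial ubiquitin ligase, rose by 0.27 ± 0.06 and PLK1, a mitotic kinase, fell by 0.20 (SE 0.05) with H1047R and vehicle (edgeR adjusted p = 0.0128 and 0.0327), and none passed with insulin (3 at an unadjusted p below 0.05, none with DESeq2). Of 20 adaptors, kinases and transcription factors below the sensors, none passed with H1047R in either treatment (7 and 5 at an unadjusted p below 0.05, none with DESeq2). None of 26 other DNA sensors and regulators of cGAS and STING passed (0 and 4 unadjusted, none with DESeq2). Nor did any of 14 genes around protein kinase R (2 and 2 unadjusted) or of 10 genes around endosomal Toll-like receptors (3 and 3 unadjusted), and none of these passed with DESeq2. Over all genes, 1.36% passed with vehicle and 0.285% with insulin. For the average H1047R effect, 2.72% of all genes passed, and the adaptors, kinases and transcription factors had 3 rises and 1 fall. RIG-I-like receptor cofactors had 1 rise and 2 falls, and other DNA sensors 1 rise and 1 fall. Genes around endosomal Toll-like receptors had 0 rises and 1 fall, and those around protein kinase R had 0 of either.

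The interferon and chemokine genes listed below the sensors had few or no counts. IFNB1 had 0 to 3 counts per library, IFNL1 0 to 5 and IFNE 1 to 12, and the chemokine genes CXCL10 and CCL5 had 0 to 5 and 2 to 25. IFNA1, IFNA2, IFNL3 and IFNK had 0 counts in every library. Only 4 of the 10 genes of this list passed the count filter, and none of them passed the edgeR test in any comparison (at most 1 at an unadjusted p below 0.05, none with DESeq2). Their median log2 change was -0.85 with the knockdown, and 0.86 and 1.41 with H1047R and vehicle or insulin. These medians come from the low counts given here.

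After the knockdown, where 19.5% of all genes passed (9.82% rising and 9.72% falling), falls outnumbered rises in 5 of the 6 lists described here. The numbers called among RIG-I-like receptor cofactors, adaptors and kinases, and other DNA sensors lay near the share over all genes. Other DNA sensors had 0 rises and 6 falls of 26, with IFI16 at -0.35 ± 0.06, MRE11 at -0.30 ± 0.06 and HMGB2 at -0.25 ± 0.06. Adaptors and kinases had 0 rises and 4 falls of 20, with AZI2 at -0.28 ± 0.05, TRAF5 at -0.47 ± 0.12 and IKBKE at -0.43 ± 0.11. Genes around endosomal Toll-like receptors had 1 rise and 4 falls of 10, with the protease gene CTSB at -0.68 ± 0.05 and HMGB1 at -0.43 ± 0.06. Cofactors of the RIG-I-like receptors had 1 rise and 3 falls of 20, with PLK1 at -0.27 ± 0.05. Genes of double-stranded RNA handling had 2 rises and 4 falls of 18, and the rises were the editing enzyme ADARB1 at 0.54 ± 0.05 and OASL at 0.70 ± 0.14. Genes around protein kinase R had 5 rises and 2 falls of 14, with the inhibitor gene DNAJC3 at 0.22 ± 0.05 and NCK1 at -0.40 ± 0.07. The medians of these lists ran from -0.15 to 0.09, against 0.02 over all genes.

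With insulin, 0 to 2 genes of each list passed with either vector, where 6.28% of all genes passed with empty vector and 2.47% with H1047R. They included 2 of 14 genes around protein kinase R with empty vector. With H1047R they included 1 of 10 genes around endosomal Toll-like receptors. Numbers this small do not set a list apart from all genes. ADARB1, PPP1R15A and CTSB fell with both vectors. ADARB1 fell by 0.42 (SE 0.05) with empty vector and by 0.34 (SE 0.05) with H1047R. PPP1R15A, which encodes a subunit of the phosphatase that reverses the action of protein kinase R on eIF2 alpha, fell by 0.40 (SE 0.07) and 0.47 (SE 0.07). CTSB fell by 0.28 (SE 0.05) and 0.26 (SE 0.05). With empty vector MARCHF5 rose by 0.25 ± 0.06, and ZC3HAV1, an antiviral zinc finger gene, by 0.20 ± 0.05.

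Across the 15 libraries RIGI and DDX60 had the most similar pattern among the sensor genes. The Pearson correlation of log2 CPM was 0.963 between RIGI and DDX60, 0.782 between IFIH1 and DDX60, and 0.724 between DDX60 and DDX60L. Among the 5 genes that rose on average with H1047R, the lowest values were 0.408 for DHX58 and DDX60L and 0.474 for IFIH1 and DDX60L, whereas DDX60L had 0.769 with MAVS and 0.713 with EIF2AK2. CGAS and STING1 had a correlation of -0.780, and TLR3 had -0.103 with DDX60. These values describe libraries that share groups, depth and library set, and they carry no test. Of 12066 other protein-coding genes with at least 1 CPM, the pattern most like DDX60 was that of HERC6 (Pearson 0.970, Spearman 0.964), followed by IFI44 (0.956, 0.918) and EMG1 (0.924, 0.893). For RIGI they were OASL (0.969, 0.929), GRB10 (0.953, 0.964) and IFIT3 (0.952, 0.904). For IFIH1 they were XAF1 (0.896, 0.789), MX2 (0.891, 0.836) and LAP3 (0.883, 0.843). For STING1 the nearest was IFITM3 (0.894, 0.889), for EIF2AK2 CCNT1 (0.903, 0.893), for TLR3 CDC42SE2 (0.907, 0.882), for DHX58 MAD2L1BP (0.875, 0.875), for CGAS DNAJC12 (0.865, 0.707), for MAVS DHRS7 (0.847, 0.782) and for DDX60L ITPRIPL2 (0.814, 0.775).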

How the data were processed

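RNA sequencing of 15 libraries of 12Z cells, in 5 groups of 3 taken from the labels, was used. Reads were trimmed (cutadapt, Trim Galore), inspected (FastQC) and mapped to hg38 (STAR) by the authors, who deposited the raw gene counts that STAR wrote. Tool versions are not given in the sources used here, and the annotation release named in the methods is numbered as a mouse release. Reverse-stranded counts were used, and forward-strand counts gave strand shares. Of 60617 gene identifiers, 60357 matched GENCODE release 44, which gave symbols, exon lengths and coordinates. The 4 summary entries of each library were kept apart.

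The 23184 genes whose mean count reached 1 were fitted together in edgeR 4.0.16 under R 4.3.3. The model held the 5 groups, libraries were scaled by TMM, and quasi-likelihood p values were adjusted across every fitted gene (Benjamini-Hochberg, threshold 0.05). The methods of the study used DESeq2 with a threshold of 0.001. Gene counts of 16.1 to 39.7 M per library gave the sensor genes a median biological coefficient of variation of 6.64%. Intervals at 95% use the 10 residual degrees of freedom, whereas the quasi-likelihood test also draws on the spread of other genes. They are thus wider than the test implies. The average H1047R interval of EIF2AK2 included 0 at an unadjusted edgeR p of 0.0448. RPKM divides CPM by the length of all exons of a gene. The 10 sensor genes and the lists were chosen with earlier results of these data known, and no pattern already seen is offered as independent support. All sensor genes are named, with up to 3 genes per list and comparison by the smallest p among those that passed, and for likeness the 3 coding genes with the highest Pearson correlation of log2 CPM (prior count 2). One further gene list is not reported here. Promoter windows and motifs come from RefSeq (GRCh38.p14). The fit was tested on simulated data.

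Alternatives were DESeq2 1.42.0, its size factors in edgeR, the edgeR filter or none, a threshold of 0.001, unstranded counts, protein-coding genes only, only the groups compared, a replicate block and leaving out single libraries. Those for the library set and for the libraries that stand apart were chosen after seeing the data. Replicate numbers gave no visible pairing: over 18 pairs with the same number, correlations of deviations from group means ran from -0.127 to 0.156. Pairs with other numbers ran from -0.147 to 0.13. With 3 libraries per group, these values do not show whether conditions shared an experiment.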

Additional observations from a re-analysis of the deposited data

How the results depend on the processing

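Of 20 results in which a sensor gene passed in a comparison, none changed sign under any alternative, and of 379 alternative values 307 also passed. Leaving out 1 library at a time, the number of sensor genes that passed ranged from 1 to 3 for the knockdown (3 with all libraries), 0 to 1 for insulin with empty vector (0), 1 to 4 for H1047R with vehicle (3), 3 to 5 for the average H1047R effect (5) and 0 to 4 for the average insulin effect (2). A threshold of 0.001 left 1 for the knockdown (TLR3), 1 for H1047R with vehicle (DDX60), 2 for the average H1047R effect, 0 for the average insulin effect and 2 for H1047R vehicle against non-targeting cells. With the term for the high forward-strand set, 0 passed for H1047R with vehicle, 1 for the average H1047R effect, 0 for the average insulin effect and 3 for H1047R vehicle against non-targeting cells. With only the groups compared, 1 passed for insulin with H1047R (DDX60) and 0 for the average insulin effect, and within the high forward-strand set 1 passed for insulin with H1047R (DDX60). Without the filter on low counts, 4 passed for H1047R with insulin against 2. Without both libraries that stand apart, 0 passed for the average insulin effect. The cause of these shifts was not tested.

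With the replicate block, 1 sensor gene passed for the average insulin effect against 2, and the block changed no other number of sensor genes by more than 1.5 times. It could not be fitted against the non-targeting group, whose replicate numbers are not shared. Numbers over all genes moved more. The knockdown had 4530, against 1761 at the threshold of 0.001. For H1047R with vehicle, 316 genes passed, against 707 without the filter, 546 with only the groups compared, 484 without the libraries that stand apart, 3 with the set term, 11 at 0.001 and 64 to 169 when H1047R library 1, 2 or 3 or empty-vector library 3 was left out. For H1047R with insulin, 66 passed, against 418 without the filter, 39 with only the groups compared, 20 with the set term, 13 at 0.001 and 19 to 463 leaving out 1 library, the highest without empty-vector library 3. The average H1047R effect had 630, against 1014 without the filter, 19 with the set term, 79 at 0.001 and 270 to 1203 leaving out 1 library, the highest without empty-vector insulin library 3. Insulin with empty vector had 1457, against 520 with only the groups compared, 588 in the low forward-strand set, 947 without vehicle library 3 and 353 at 0.001. Insulin with H1047R had 573, against 1272 with only the groups compared, 1256 in the high forward-strand set, 910 without the libraries that stand apart, 354 to 374 without vehicle library 1 or 3 or insulin library 1 or 3, and 205 at 0.001. The average insulin effect had 1940, against 651 at 0.001. H1047R vehicle against non-targeting cells had 4774, against 1141 with the set term and 1882 at 0.001. The interaction had 0, against 81 without the filter and at most 1 leaving out libraries. CGAS, with the fewest counts, had the widest intervals.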
